A study of Homo sapiens with 10 samples.

Results

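Levels of 10 imprinted genes were compared between cells of SW480, a line from a human colorectal adenocarcinoma, that had been sorted into those with and those without ROBO1, a guidance receptor at the cell surface. They were H19, IGF2, PEG3, PEG10, MEST, MEG3, DLK1, CDKN1C, PLAGL1 and KCNQ1OT1, taken by symbol from the 26485 genes listed in the count files, and all 10 were found there. An imprinted gene is expressed mainly from the copy inherited from 1 parent, under control regions nearby that are methylated on only the maternal or only the paternal copy. IGF2, PEG3, PEG10, MEST, DLK1, PLAGL1 and KCNQ1OT1 are paternally expressed genes and H19, MEG3 and CDKN1C maternally expressed ones. Many imprinted genes act on fetal growth, and loss of imprinting at IGF2 is a known change of colorectal tumours. Gene counts hold no information on which parental copy was read.

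The populations compared were ROBO1pos, which the labels also name SW480-CBC, and ROBO1neg, which they name SW480-RSC, with 5 libraries of polyadenylated RNA each. Both came from the same untreated line of wild-type genotype, grown in the same medium with 10% serum, and no treatment or time separates them. No label ties a replicate to a culture of its own, so each p-value is set against library-to-library spread that may be technical. In bulk RNA, fewer expressing cells and less RNA per cell cannot be told apart.

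Between 23228686 and 29539100 reads per library fell on genes, so that 1 CPM, a count per 1000000 gene reads, rested on 23.2 to 29.5 counts. ROBO1, the sorting marker, was at 432 ± 28.6 CPM (mean ± SD, n = 5) in ROBO1pos and 7.20 ± 1.44 CPM in ROBO1neg. Of 12 markers of colorectal epithelium, 11 were tested, their summed level was 5823 to 7016 CPM in ROBO1pos and 7918 to 10492 CPM in ROBO1neg, and KRT20 was listed at 0. That sum was carried by the keratins KRT8, KRT18 and KRT19, and single markers went both ways, 5 higher in ROBO1pos and 4 in ROBO1neg: EPCAM was at 684 against 300.2 CPM and VIL1 at 506 against 27.4 CPM, while KRT18 was at 2357 against 4066 CPM. The 6 fibroblast, 6 leukocyte and 4 endothelial markers summed to at most 22.5, 5.60 and 4.23 CPM in any library. Some genes that cells in general use, such as NELFE and EHMT2, were listed at 0 in all 10 libraries. Between 20.5% and 26.2% of the reads in each library had aligned to several places and were assigned to no gene. A 0 in these files is therefore given below as a listing and not as absence of the RNA.

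Of the 10 imprinted genes, 4 had enough reads to be tested by edgeR's quasi-likelihood test: IGF2, MEST, KCNQ1OT1 and PLAGL1. ROBO1pos had the higher levels of IGF2, MEST and KCNQ1OT1, and ROBO1neg that of PLAGL1. All 4 had passed the count filter in the 5 libraries of either group. Being called was common in this comparison: 82.0% of the 14932 genes tested were called at an adjusted p under 0.05, 41.6% as higher in ROBO1pos and 40.4% as higher in ROBO1neg. For 3 of the 4 genes no ROBO1pos library reached into the range of the ROBO1neg libraries, which held for 72.1% of all genes tested. The median log2 fold change, ROBO1pos minus ROBO1neg, was 0.86 over the 4 genes and 0.019 over all genes tested. The other 6 genes had between 0 and 13 reads over all 10 libraries and were too low for that test.

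IGF2, the fetal insulin-like growth factor, lies on chromosome 11 from 2129117 to 2149566 (RefSeq, GRCh38.p14). It was at 11.8, 9.16, 9.54, 6.63 and 8.60 CPM in ROBO1pos replicates 1 to 5 and at 1.55, 1.42, 1.46, 1.86 and 1.04 CPM in the ROBO1neg replicates. Every ROBO1pos library lay above every ROBO1neg library, and the lowest ROBO1pos library was still over 3 times the highest ROBO1neg library. The ROBO1pos mean was 6.24 times the ROBO1neg mean, a log2 fold change of 2.62 (SE 0.18, edgeR adjusted p = 5.1e-09). In GENCODE release 29, 25.4% of the exonic bases of IGF2 are shared on the same strand with other annotated genes, among them the readthrough gene INS-IGF2, which was listed at 0 reads in all 10 libraries. Reads that fall on shared exons can be left out as ambiguous, so the level of IGF2 is uncertain. IGF2-AS, which overlaps IGF2 on the opposite strand, was at 0.831 ± 0.449 CPM in ROBO1pos and 0.287 ± 0.111 CPM in ROBO1neg (log2 difference 1.49 with SE 0.40, edgeR adjusted p = 0.0035). Its groups overlapped, with a lowest ROBO1pos library of 0.326 CPM and a highest ROBO1neg library of 0.440 CPM. IGF2-AS had passed the count filter in 4 ROBO1pos libraries and 1 ROBO1neg library, so mainly through the group where it was high. Whether the counting used strand is unknown here, so reads of IGF2 and IGF2-AS may not be separated.

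H19 is a maternally expressed long noncoding RNA that shares enhancers and a methylated control region with IGF2. It was listed at 0 reads in all 10 libraries, which over the summed depth of each group allows a level of up to 0.0236 CPM in ROBO1pos and 0.0235 CPM in ROBO1neg by counting error alone. MRPL23, a mitochondrial ribosomal protein gene whose annotated span overlaps that of H19, was at 8.73 CPM in ROBO1pos and 8.10 CPM in ROBO1neg. INS, the insulin gene on the other side of IGF2, had 2 reads in ROBO1neg replicate 2 and 0 in every other library. Within 500 kb of IGF2, 14 other genes were tested, 8 with the higher level in ROBO1pos and 5 in ROBO1neg, with a median log2 fold change of 0.88. ASCL2, a stem cell transcription factor of the crypt, TSPAN32 and C11orf21 were among the former with log2 fold changes of 1.33, 2.87 and 1.96. Some of the 8 were low in ROBO1neg: TSPAN32, IFITM10, IGF2-AS and TNNI2 were at 0.476, 0.477, 0.287 and 0.187 CPM there. IGF2-AS was tested mainly through ROBO1pos, the group where it was high. The count of 8 and the median were not corrected for such genes. TH, which encodes tyrosine hydroxylase and lies 14.4 kb from IGF2, had a log2 fold change of -1.06. Adjacent genes of this stretch thus differed in opposite directions. Over the 20 nearest tested genes on each side the median log2 fold change was -0.098, and IGF2 minus that median was 2.71.

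**Figure D1:**
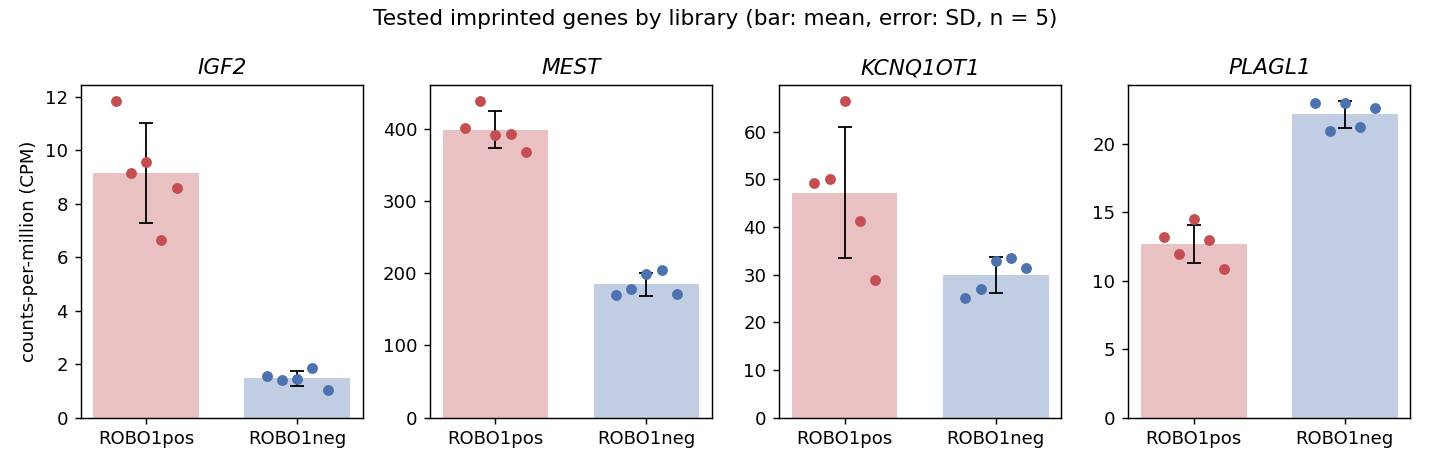
Levels in CPM of the 4 tested imprinted genes in each library, with bars at the mean and error bars of 1 SD over 5 libraries of ROBO1pos (red) and 5 of ROBO1neg (blue), each axis starting at 0. IGF2 and MEST were higher in every ROBO1pos library, PLAGL1 was lower in every one, and for KCNQ1OT1 ROBO1pos replicate 5, at 28.9 CPM, lay among the ROBO1neg libraries.

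Genes of the insulin-like growth factor (IGF) axis were described from a list of 23 genes, of which 15 were tested. Beside receptors and carriers of the factors, the list holds IGF1 and the IRS, IGF2BP, PAPPA and STC genes. ROBO1neg had the higher level for 11, ROBO1pos for 3 and 1 was not called, with a median log2 fold change of -0.66. This is a called share of 93.3%, against 82.0% of all genes tested. Among the 11 were IGF1, IRS1, IRS2, IGF2BP2 and STC2, which are neither receptors nor carriers. Of the 15, IGF1 alone had passed the count filter through 1 group, ROBO1neg. The 5 tested binding proteins, which carry the factors outside the cell, were all higher in ROBO1neg. IGFBP2 and IGFBP4, at log2 fold changes of -0.48 and -0.55, differed little from the medians of their 40 nearest tested genes, -0.40 and -0.55. Those medians were 0.41 for IGFBP3, -0.67 for IGFBP6 and 0.29 for IGFBP7. IGFBP3 was at 350.5 ± 26.5 CPM in ROBO1neg and 18.8 ± 4.22 CPM in ROBO1pos (log2 fold change -4.24, SE 0.13). IGFBP7, a binding protein of low affinity, was at 144 ± 26.9 CPM against 0.956 ± 0.445 CPM (log2 fold change -7.24, SE 0.20). IGFBP6, which prefers IGF2 over IGF1, was at 131 ± 23.8 CPM against 21.3 ± 9.31 CPM (log2 fold change -2.64, SE 0.22). IGF1, the other ligand, was also higher in ROBO1neg, at 6.75 ± 2.16 CPM against 1.02 ± 0.513 CPM, and is the gene tested only through the group where it was high.

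The receptors differed by less. IGF1R, the receptor tyrosine kinase that both ligands bind, was at 194 ± 9.10 CPM in ROBO1pos and 150.4 ± 19.6 CPM in ROBO1neg (log2 difference 0.35 with SE 0.074, edgeR adjusted p = 6.6e-04). The median of its 40 nearest tested genes was 0.80. IGF2R, which takes up IGF2 for breakdown and is itself imprinted in mice, was at 317 ± 11.8 CPM in ROBO1pos and 348 ± 23.9 CPM in ROBO1neg (log2 difference -0.16 with SE 0.051, edgeR adjusted p = 0.012). The RNA-binding proteins IGF2BP1 and IGF2BP3, which bind IGF2 mRNA, were higher in ROBO1pos at log2 fold changes of 0.48 (SE 0.065) and 0.56 (SE 0.052). IGF2BP2, a further member of that family named after its values were seen, ran the other way and differed by more, at 56.9 ± 3.15 CPM in ROBO1pos against 234 ± 9.88 CPM (log2 fold change -2.06, SE 0.048). The medians of the 40 nearest tested genes were -0.92 for IGF2BP1, 0.50 for IGF2BP3 and -0.83 for IGF2BP2. The neighbours of IGF2BP3 thus differed by nearly as much as IGF2BP3 did.

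MEST, a paternally expressed gene that encodes a hydrolase-fold protein of the endoplasmic reticulum, lies on chromosome 7 from 130486175 to 130506465. RefSeq gives it 5 starts with different promoters, and a gene count sums over all of them. The 250 bases before the first and before the last of these starts are shown because they show how unlike the promoters behind this count are. They are on the plus strand at chr7:130485925-130486174 and chr7:130491835-130492084 (RefSeq, GRCh38.p14). Capitals would mark TGCCGC or its reverse complement GCGGCA, the hexamer that the imprint-keeping zinc finger protein ZFP57 binds when methylated, and neither of these windows holds it, although 1 of the other MEST windows does.
MEST first start: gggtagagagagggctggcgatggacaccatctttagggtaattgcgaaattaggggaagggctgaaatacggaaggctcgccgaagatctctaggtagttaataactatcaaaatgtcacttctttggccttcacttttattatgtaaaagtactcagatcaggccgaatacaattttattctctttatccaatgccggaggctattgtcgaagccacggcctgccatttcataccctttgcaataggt
MEST last start: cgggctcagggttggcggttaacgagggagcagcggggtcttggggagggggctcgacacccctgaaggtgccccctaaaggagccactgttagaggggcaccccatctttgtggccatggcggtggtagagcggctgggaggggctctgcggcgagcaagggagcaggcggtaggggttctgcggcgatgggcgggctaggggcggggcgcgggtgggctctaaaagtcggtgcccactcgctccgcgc
The first window holds 9 CG dinucleotides and 44.0% G and C, and the last holds 20 CG dinucleotides and 69.6% G and C. Over all 35097 RefSeq windows of that length, the median was 11 CG dinucleotides and 12.8% held the hexamer on either strand.

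MEST had the highest level of the 10 genes. It was at 400.3, 438, 391, 392 and 368 CPM in ROBO1pos replicates 1 to 5 and at 169, 178, 199, 204 and 172 CPM in ROBO1neg. The groups did not overlap, and the ROBO1pos mean of 398 ± 25.6 CPM was 2.16 times the ROBO1neg mean of 184 ± 16.1 CPM. The log2 fold change was 1.09 (SE 0.062, edgeR adjusted p = 8.2e-10). MESTIT1, an antisense RNA from the same promoter region, had 4 reads over all ROBO1pos libraries and 1 read over all ROBO1neg libraries. In GENCODE release 29, 27.4% of the exonic bases of MEST are covered by genes on the opposite strand, among them MESTIT1 and COPG2.

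The genes beside MEST did not share its difference. COPG2, a coat protein subunit gene whose end overlaps that of MEST, was at 82.0 ± 3.64 CPM in ROBO1pos and 78.6 ± 5.43 CPM in ROBO1neg and was not called (log2 fold change 0.04, SE 0.049, edgeR adjusted p = 0.438). CPA4, a carboxypeptidase gene reported as imprinted, was at 0.389 ± 0.283 CPM in ROBO1pos and 3.41 ± 0.626 CPM in ROBO1neg (log2 fold change -3.12, SE 0.33). KLF14, an imprinted transcription factor gene, was at 0.386 ± 0.0809 CPM against 1.85 ± 0.391 CPM (log2 fold change -2.27, SE 0.22). CPA4 and KLF14 had passed the count filter only through ROBO1neg. Of the 12 tested genes within 500 kb, 2 had the higher level in ROBO1pos and 6 in ROBO1neg, and the median log2 fold change was -0.29.

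MEST also hosts the microRNA gene MIR335 in an intron. The mature microRNAs are shown with the seed, bases 2 to 8, in capitals, since the seed sets which target sites they pair with.
hsa-miR-335-5p: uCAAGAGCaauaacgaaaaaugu
hsa-miR-335-3p: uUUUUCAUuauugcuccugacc
The libraries were made from polyadenylated RNA and do not measure mature microRNAs. The hairpin was listed with at most 2 reads in any library.

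KCNQ1OT1 is a long paternal noncoding RNA that runs antisense through KCNQ1 and silences neighbouring genes on the same chromosome copy. It lies on chromosome 11 from 2608328 to 2699994. It was at 49.3, 50.1, 66.5, 41.2 and 28.9 CPM in ROBO1pos replicates 1 to 5 and at 25.0, 26.9, 32.9, 33.6 and 31.5 CPM in ROBO1neg. The groups overlapped, because ROBO1pos replicate 5 lay below 3 of the ROBO1neg libraries. The means were 47.2 ± 13.7 and 30.0 ± 3.81 CPM, and the log2 fold change was 0.63 (SE 0.17, edgeR adjusted p = 0.0030). Against a null of 1.5-fold it was not called (edgeR adjusted p = 0.367). The share of reads on no annotated feature was 15.5%, 15.5%, 16.7%, 16.1% and 15.2% in the same ROBO1pos libraries and 14.8%, 14.1%, 14.9%, 14.7% and 14.5% in ROBO1neg. The highest and the lowest ROBO1pos library for KCNQ1OT1 were thus also the highest and the lowest for that share. The order did not hold throughout. ROBO1pos replicate 4 was below replicates 1 and 2 for KCNQ1OT1 and above them for the share. ROBO1neg replicate 1 was the lowest of its group for KCNQ1OT1, with a share above those of replicates 4 and 5. The part of that share in the result was not tested.

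Protein-coding genes around KCNQ1OT1 ranged widely in level. Of 13 tested genes within 500 kb of it, 5 had the higher level in ROBO1pos and 8 in ROBO1neg. CD81 and ASCL2, chosen after their values were seen, were at 178 and 63.1 CPM in ROBO1pos and at 222 and 24.7 CPM in ROBO1neg. Others were low or listed at 0. CDKN1C, which encodes the CDK inhibitor p57 and is maternally expressed, had 0, 1, 1, 0 and 2 reads in ROBO1pos and 1, 1, 0, 1 and 0 reads in ROBO1neg. The ratio of summed reads over summed depth was 1.34 (95% exact binomial interval 0.227 to 9.17, counting error only), and an exact two-sided permutation test gave p = 0.730. Without ROBO1pos replicate 5 the difference in mean CPM turned to -0.0046. PHLDA2, a maternally expressed growth inhibitor of the placenta, was listed at 0 in all 10 libraries. KCNQ1, a potassium channel gene, was at 0.668 ± 0.266 CPM in ROBO1pos and 4.52 ± 0.920 CPM in ROBO1neg (log2 difference -2.77 with SE 0.24, edgeR adjusted p = 7.6e-08). SLC22A18, a transporter gene, was at 0.592 ± 0.256 CPM against 4.55 ± 0.269 CPM (log2 fold change -2.96, SE 0.21, edgeR adjusted p = 8.5e-09). SLC22A18 had passed the count filter only through ROBO1neg, the group where it was high, and KCNQ1 through both groups. NAP1L4 and CARS, broadly used genes beyond PHLDA2 that were chosen after their values were seen, were at 5.28 and 5.52 CPM in ROBO1pos and at 6.61 and 9.05 CPM in ROBO1neg.

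**Figure D2:**
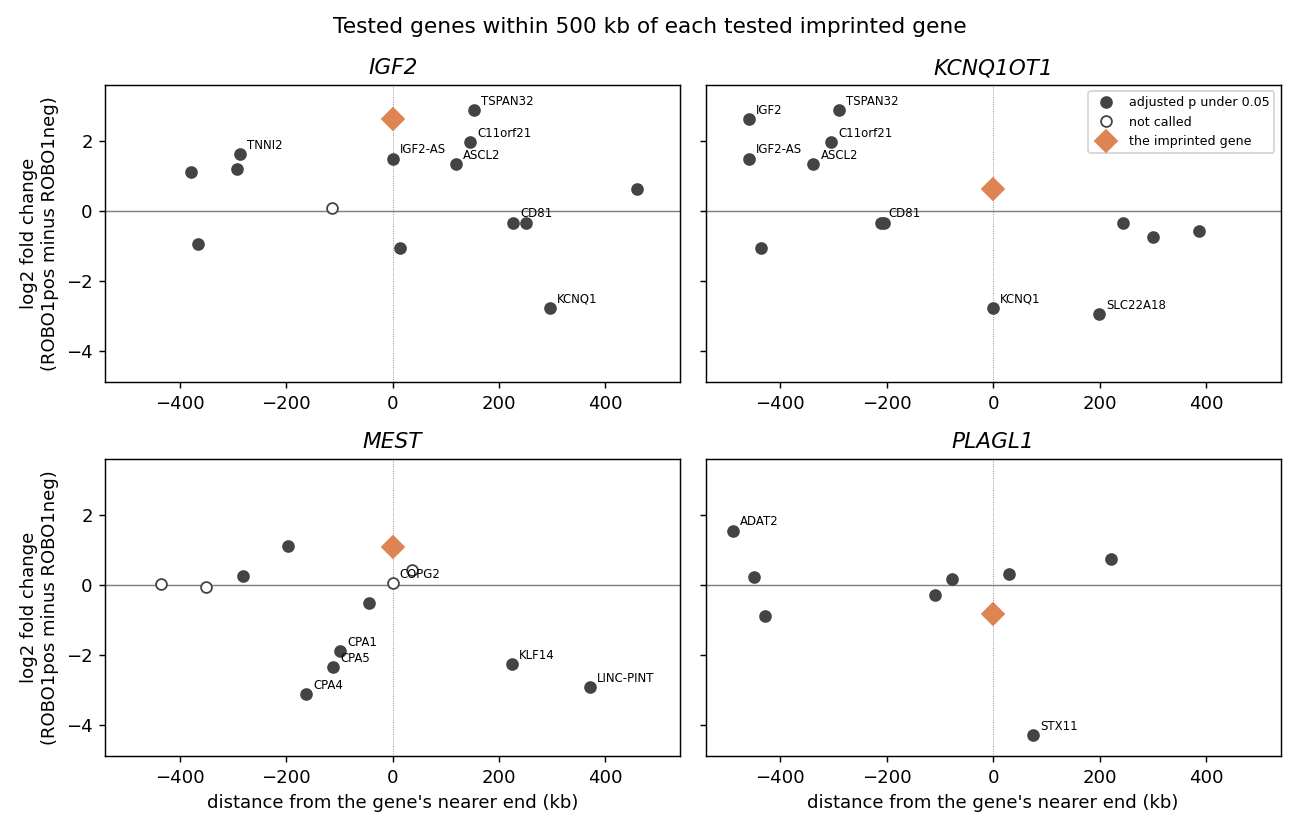
Log2 fold change of every tested gene within 500 kb of IGF2, KCNQ1OT1, MEST or PLAGL1, plotted against its distance from the gene in kb, with positive values higher in ROBO1pos. The diamond is the imprinted gene itself, filled points had an edgeR adjusted p under 0.05 and open points did not, and neighbours lay on both sides of 0 in each panel.

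PLAGL1 encodes a zinc finger transcription factor, also named ZAC1, that restrains growth and lies on chromosome 6 from 143940300 to 144064599. RefSeq gives PLAGL1 5 starts, and a gene count sums over all of them. Among their promoters are an imprinted one, which also starts the noncoding RNA HYMAI, and an upstream one that is read from both parental copies. The windows of both named promoters, of 250 bases each, are shown for that reason. They are on the minus strand at chr6:144008260-144008509 and chr6:144064600-144064849 (RefSeq, GRCh38.p14), with TGCCGC or GCGGCA in capitals.
PLAGL1 start shared with HYMAI: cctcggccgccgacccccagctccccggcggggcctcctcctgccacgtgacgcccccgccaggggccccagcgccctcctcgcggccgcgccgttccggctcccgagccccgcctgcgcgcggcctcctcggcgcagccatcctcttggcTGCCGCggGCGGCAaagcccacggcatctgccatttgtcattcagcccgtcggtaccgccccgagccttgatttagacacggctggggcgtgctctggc
PLAGL1 upstream start: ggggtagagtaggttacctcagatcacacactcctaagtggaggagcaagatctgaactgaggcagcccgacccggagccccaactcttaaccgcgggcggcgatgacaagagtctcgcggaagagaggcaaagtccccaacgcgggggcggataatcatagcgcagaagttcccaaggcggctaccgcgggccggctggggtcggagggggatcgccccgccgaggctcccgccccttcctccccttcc
The window at the shared start holds 32 CG dinucleotides, more than 90.5% of all RefSeq windows, and the hexamer once in each orientation. The upstream window holds 21 CG dinucleotides and no hexamer. The windows at the other PLAGL1 starts, not shown, hold 1 to 3 CG dinucleotides and no hexamer. A match is a run of letters and does not show binding.

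PLAGL1 was at 13.2, 12.0, 14.5, 13.0 and 10.8 CPM in ROBO1pos replicates 1 to 5 and at 23.0, 20.9, 23.0, 21.2 and 22.6 CPM in ROBO1neg. Every ROBO1neg library lay above every ROBO1pos library. The means were 12.7 ± 1.37 and 22.1 ± 0.991 CPM, with a log2 fold change of -0.82 (SE 0.075, edgeR adjusted p = 1.5e-07). HYMAI had 2, 8, 2, 2 and 9 reads in ROBO1pos and 1, 3, 1, 4 and 3 reads in ROBO1neg, too few to be tested by edgeR, with a ratio of 1.93 (95% exact binomial interval 0.922 to 4.26, counting error only) and an exact two-sided permutation p = 0.302. Within 500 kb of PLAGL1, 5 of 8 tested genes had the higher level in ROBO1pos and 3 in ROBO1neg, with a median log2 fold change of 0.21. STX11, a syntaxin gene 75.4 kb from it, had the most negative value there, -4.30, and had passed the count filter only through ROBO1neg.

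Levels of different genes were compared per kilobase of GENCODE exon. In ROBO1pos, MEST was at 83.0 ± 5.34 CPM per kb, PLAGL1 at 1.45 ± 0.157, IGF2 at 1.19 ± 0.244 and KCNQ1OT1 at 0.515 ± 0.150. The library ranges of PLAGL1 and IGF2 overlapped there, IGF2 reaching 1.54 CPM per kb, and those of the other neighbours in this order did not. In ROBO1neg the order was MEST at 38.5 ± 3.35 CPM per kb, PLAGL1 at 2.54 ± 0.113, KCNQ1OT1 at 0.327 ± 0.0415 and IGF2 at 0.191 ± 0.0384, with no overlap between neighbours. Lengths sum the exons of all transcripts, so these levels are low where a short transcript prevails.

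PEG10, a paternally expressed gene derived from a retrotransposon, had 6, 1, 2, 2 and 1 reads in ROBO1pos and 0, 0, 0, 0 and 1 read in ROBO1neg. The ratio of summed reads, each over the summed depth of its group, was 12.1 (95% exact binomial interval 1.79 to 517, counting error only). An exact two-sided permutation test of CPM gave p = 0.00794, the smallest that 5 against 5 libraries can give, although the lowest ROBO1pos and the highest ROBO1neg library held 1 read each. With 1 library left out the difference in mean CPM, 0.0872, ran from 0.0524 without ROBO1pos replicate 1 to 0.101, and the exact p reached 0.0317. SGCE, the sarcoglycan gene that shares its promoter region with PEG10, had 3, 7, 5, 7 and 0 reads in ROBO1pos and 0 in every ROBO1neg library. Set against the limit of 3 reads over the group that a count of 0 allows, SGCE was at least 7.39-fold higher in ROBO1pos, not counting the error of its own 22 reads. With that error the 95% exact binomial lower limit of the ratio was 5.52, and an exact two-sided permutation test gave p = 0.0476. PPP1R9A, an actin-binding neurabin gene that lies 237.5 kb beyond PEG10 and is imprinted in some tissues, was at 162 ± 13.7 CPM in ROBO1pos and 83.0 ± 7.25 CPM in ROBO1neg (log2 fold change 0.95, SE 0.069). Within 500 kb of PEG10, 3 genes were tested, 2 with the higher level in ROBO1pos and 1 in ROBO1neg. The 2 were PPP1R9A and COL1A2, the latter at 1.99 ± 1.55 CPM in ROBO1pos and 0.350 ± 0.171 CPM in ROBO1neg. COL1A2 had passed the count filter only through ROBO1pos. CASD1, the nearest of the 3, was higher in ROBO1neg, at 53.7 ± 2.76 CPM in ROBO1pos and 77.6 ± 4.51 CPM in ROBO1neg (log2 fold change -0.55, SE 0.049).

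MEG3, a maternally expressed noncoding RNA, had 1, 3, 0, 0 and 2 reads in ROBO1pos and 0 in every ROBO1neg library. Against the same limit of 3 reads over the group it was at least 2.01-fold higher in ROBO1pos, not counting the error of its own 6 reads. With that error the 95% exact binomial lower limit of the ratio was 1.19, and an exact two-sided permutation test gave p = 0.167. Without ROBO1pos replicate 3 or replicate 4, each at 0 reads, that exact p was 0.0476. DLK1, a membrane protein of the Notch ligand type from the same domain of chromosome 14, was listed at 0 in all 10 libraries. RTL1, a retrotransposon-derived gene, had 3 reads in ROBO1pos and 0 in ROBO1neg, MEG8 was listed at 0 and MEG9 had 1 read in ROBO1neg replicate 2. DIO3, at the far end of the same domain, encodes the deiodinase that inactivates thyroid hormone and stood apart in level, at 20.6 ± 2.21 CPM in ROBO1pos and 1.23 ± 0.321 CPM in ROBO1neg (log2 difference 4.05 with SE 0.14, edgeR adjusted p = 4.9e-12). DIO3OS, a noncoding RNA from the opposite strand at DIO3, was at 7.55 ± 1.23 CPM against 0.678 ± 0.219 CPM (log2 fold change 3.47, SE 0.20), and had passed the count filter only through ROBO1pos. Of 105 other genes listed within 500 kb of MEG3, 97 were at 0 in every library. Many of them are microRNA and small nucleolar RNA genes, which libraries of polyadenylated RNA capture poorly.

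PEG3, a paternally expressed zinc finger gene of chromosome 19, had 1 read in ROBO1pos replicate 4 and 0 in the other 9 libraries. Its imprinted neighbours ZIM2, MIMT1 and USP29 were listed at 0 throughout. Other zinc finger genes within 500 kb of it varied in level, and those named here were chosen after their values were seen. ZNF71 and ZNF470 were at 14.4 to 30.7 CPM on average in the groups. ZNF835 was listed at 0 throughout, and ZNF471 was at 0 CPM in ROBO1pos and 0.0084 CPM in ROBO1neg. Both populations were at or under the limit of 3 reads for PEG3, so no ratio is given.

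**Figure D3:**
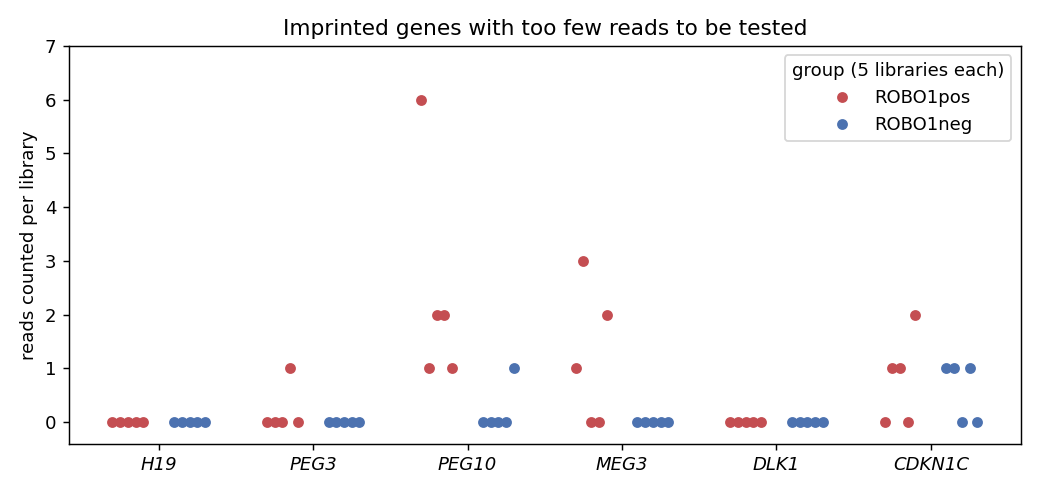
Reads counted per library for the 6 imprinted genes that were too low to be tested, 1 point per library, ROBO1pos in red and ROBO1neg in blue. PEG10 reached 6 reads in ROBO1pos replicate 1 and 1 read in ROBO1neg replicate 5, and H19 and DLK1 were at 0 in every library.

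A wider list of genes reported as imprinted in human or mouse tissue divided between the populations. Of 64 names, 62 were listed in the files, 14 of them at 0 in every library, and 32 were tested. ROBO1pos had the higher level for 10, ROBO1neg for 13 and 9 were not called, a called share of 71.9% against 82.0% of all genes, with a median log2 fold change of 0.028. Of the 32, 6 had passed the count filter in 1 group alone. Beside DIO3, DIO3OS and PPP1R9A, WT1, a zinc finger transcription factor gene, was among the highest in ROBO1pos relative to ROBO1neg, at 8.12 ± 1.31 against 2.59 ± 0.705 CPM. Higher in ROBO1neg were ZNF331, a zinc finger gene, at 17.7 ± 1.31 against 3.00 ± 0.508 CPM (log2 fold change -2.58, SE 0.11) and RB1, the retinoblastoma tumour suppressor, at 208 ± 7.82 against 88.5 ± 2.87 CPM (log2 fold change -1.25, SE 0.039). ZDBF2 and BLCAP were higher there by less, at log2 fold changes of -0.79 (SE 0.082) and -0.62 (SE 0.039). GNAS, the stimulatory G protein gene with an imprinted locus, was at 1220 ± 52.8 and 1192 ± 41.1 CPM and was not called (log2 fold change 0.014, SE 0.040, edgeR adjusted p = 0.759). SNRPN and SNURF, which share their transcript, were listed at 0 in every library.

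Genes that set or keep imprints were described from a list of 29, of which 21 were tested. ROBO1pos had the higher level for 12, ROBO1neg for 3 and 6 were not called, a called share of 71.4% against 82.0% of all genes tested, with a median log2 fold change of 0.33. CTCFL, a testis paralogue of the insulator protein CTCF, was at 6.58 ± 1.93 CPM in ROBO1pos and 0.0559 ± 0.0552 CPM in ROBO1neg (log2 fold change 6.76, SE 0.40). It is the 1 gene of the 21 that passed the count filter only through the group where it was high, with 7 reads over all ROBO1neg libraries. CTCF, which binds the control region between H19 and IGF2, differed far less, with 99.7 ± 4.45 against 87.5 ± 2.03 CPM (log2 fold change 0.17, SE 0.040). The TET enzymes, which oxidise methylated cytosine, were all higher in ROBO1pos. TET2 was at 248 ± 52.9 against 29.1 ± 3.00 CPM (log2 fold change 3.07, SE 0.14), TET1 at 17.0 ± 1.98 against 3.04 ± 0.344 CPM (log2 fold change 2.46, SE 0.11) and TET3 at 177 ± 10.6 against 53.2 ± 4.63 CPM (log2 fold change 1.71, SE 0.062). The DNA methyltransferase genes DNMT1, DNMT3A and DNMT3B were higher in ROBO1pos too, at log2 fold changes of 0.63, 0.48 and 1.18. So were TRIM28, SETDB1, UHRF2 and ARID4B, at 0.97, 0.91, 0.33 and 0.62, while UHRF1 was not called. The Polycomb genes EZH2 and EED and the transcription factor gene YY1 were higher in ROBO1neg, with log2 fold changes of -0.50 (SE 0.049), -0.26 (SE 0.051) and -0.20 (SE 0.049). ZFP57 was listed at 0, and ZNF445, a zinc finger protein with a similar role, was at 59.5 ± 1.45 and 60.4 ± 4.24 CPM and was not called (log2 fold change -0.040, SE 0.049, edgeR adjusted p = 0.452).

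Sequence relatives of the imprinted genes were listed by 27 names, 18 of which the files hold. The other 9 names are newer symbols of genes held there under an older name, such as RTL5 for RGAG4. Of the 18, 10 were tested, with the higher level in ROBO1pos for 7 and in ROBO1neg for 3. The called share was 10 of 10, against 82.0% of all genes tested, of which 41.6% were higher in ROBO1pos. IGF1, which is also on this list, had passed the count filter only through ROBO1neg. CDKN1A, which encodes the CDK inhibitor p21 and is related to CDKN1C, was at 92.2 ± 3.24 CPM in ROBO1neg and 16.1 ± 3.69 CPM in ROBO1pos (log2 fold change -2.53, SE 0.11). DLK2, the relative of DLK1, was at 5.52 ± 0.832 against 2.53 ± 0.267 CPM (log2 fold change -1.14, SE 0.13). PLAG1, an oncogenic relative of PLAGL1, ran opposite to it, at 24.0 ± 0.664 CPM in ROBO1pos and 15.1 ± 0.968 CPM in ROBO1neg (log2 fold change 0.65, SE 0.059). The tested relatives of PEG10 from the same retrotransposon family were higher in ROBO1pos: RGAG4 had a log2 fold change of 2.14 (SE 0.12), the gene listed as C22orf29 one of 0.87 (SE 0.076) and LDOC1L one of 0.54 (SE 0.041). FAM127C was barely called (0.29, SE 0.12, edgeR adjusted p = 0.044). Others of that family were too low to be tested. LDOC1 had 25 reads in ROBO1pos and 1 in ROBO1neg, FAM127A 25 and 23, and RGAG1 17 and 10. FAM127B and ZCCHC16 were listed at 0, and ZCCHC5 had 1 read.

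**Figure D4:**
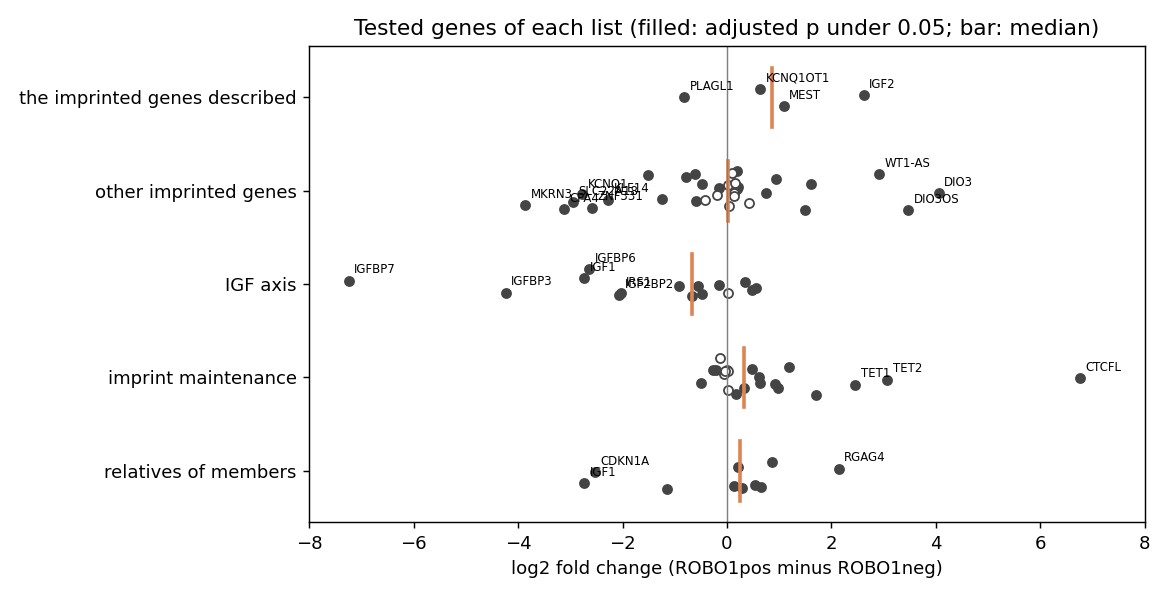
Log2 fold change, ROBO1pos minus ROBO1neg, of every tested gene of each list, filled where the edgeR adjusted p was under 0.05, with the list's median as a bar. The medians were 0.86 for the imprinted genes described, 0.028 for other imprinted genes, -0.66 for the IGF axis, 0.33 for imprint maintenance and 0.25 for relatives, and genes of each list lay on both sides of 0.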

How the data were processed

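Each library has a deposited table of raw counts, in which the authors give the reads assigned to each gene without any scaling. The submitters' processing notes name STAR (2.6.0c), SAMtools (1.9), DESeq2 (1.24.0) and the build GRCh38. Per the labels' protocols, a stranded kit for polyadenylated RNA was used. The sources used here do not name the counting tool, its strand setting or the annotation. Entries that name no gene were left out: reads with no feature (14.1% to 16.7% of all listed reads per library), ambiguous reads (0.806% to 0.881%) and reads aligned to several places (20.5% to 26.2%).

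CPM is the count per 1000000 reads of the gene total. Genes were kept by edgeR's filterByExpr, scaled by TMM and tested by a quasi-likelihood model with group as its term (edgeR 4.0.16, R 4.3.3), with Benjamini-Hochberg adjustment over all 14932 genes and a threshold of 0.05. On simulated counts at the depths of these libraries, 200 of 200 genes changed 2-fold up or down were recovered among 14821 tested, with 10 false calls. Every simulated gene had the same dispersion, and the 200 were drawn from genes that were not low. In the data 82.0% of genes were called, so the recovery and the false calls need not carry over. Genes under the filter had an exact two-sided permutation test of CPM over all assignments of libraries to groups, 8 genes in all, with p-values unadjusted. Alternatives were other scalings and filters, DESeq2 1.42.0, limma-voom (limma 3.58.1), a 1.5-fold null, the replicate block, each library left out, and subtraction of the median of the 20 nearest tested genes on each side.

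Named genes were the 10 imprinted genes and ROBO1, up to 4 called genes per direction of each list at 5 CPM or more by size of change, listed neighbours in the imprinted domains, and genes said to be chosen otherwise. Other genes named as examples of a list were chosen after their values were seen. The imprinted genes and the lists were chosen with earlier results of these data known. Promoter windows and microRNAs came from RefSeq tables for GRCh38.p14, in which H19, MEG3, MEST and PLAGL1 matched a promoter (4 of 10). No pair of libraries within a group was a duplicate: counts differed by 3.55 to 22.0 times the sampling variance per degree of freedom.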

Additional observations from a re-analysis of the deposited data

Results flagged for a closer look

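In groups of 5 libraries, a library was singled out when its gap to the next exceeded Dixon's limit. This held for 8 of 90 groups of values. In 5 of the 8 a single library held 1 or 2 reads and the others 0, which passes the limit by construction, so the rate of about 1 in 20 that chance gives does not apply to them. Among the imprinted genes these were PEG10 in ROBO1pos replicate 1, at 0.234 CPM against 0.0376 to 0.0814 CPM in the other ROBO1pos libraries, PEG10 in ROBO1neg replicate 5, at 0.0359 CPM with the others at 0, and PEG3 in ROBO1pos replicate 4, at 0.0407 CPM with the others at 0. These rest on 6, 1 and 1 reads. Of the neighbours, INS (0.0861 CPM), MESTIT1 (0.0431 CPM) and MEG9 (0.0431 CPM) stood out in ROBO1neg replicate 2 on 2, 1 and 1 reads with the others at 0. IGF1R was at 185 CPM in ROBO1neg replicate 1 against 136 to 145 CPM in the other ROBO1neg libraries. IGFBP6 was at 37.6 CPM in ROBO1pos replicate 5 against 14.4 to 19.6 CPM in the other ROBO1pos libraries.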

How the results depend on the processing

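IGF2, MEST and PLAGL1 kept their direction and their call under all 19 other fits, with log2 fold changes from 2.50 to 2.72, 1.05 to 1.15 and -0.88 to -0.76. KCNQ1OT1 did so under 18 of 19 (0.48 to 0.76) and was lost against a 1.5-fold null. With no filter beyond 1 count, 5 of the imprinted genes were called as higher in ROBO1pos, as PEG10 (edgeR adjusted p = 0.011) and MEG3 (0.042) joined. Against a 1.5-fold null the IGF axis had 7 calls, 0 of them higher in ROBO1pos and 7 in ROBO1neg, imprint maintenance had 7, of them 7 in ROBO1pos and 0 in ROBO1neg, and relatives had 5, of them 2 in ROBO1pos. With 5 CPM in 5 libraries, which tests fewer genes, 7 other imprinted genes and 1 relative were called as higher in ROBO1neg. With 1 library left out, the difference in mean CPM ran from -0.0046 to 0.0159 for CDKN1C, whose sign turned without ROBO1pos replicate 5 (-0.0046, exact permutation p = 0.714), and from 0.0302 to 0.0584 for MEG3, whose exact permutation p was 0.0476 without ROBO1pos replicate 3 or 4. For PEG10 it ran from 0.0524 to 0.101, with an exact permutation p of 0.00794 to 0.0317. Minus the median of its neighbours, IGF1R turned to -0.46. The replicate numbers share no stated origin, and the deviations of same-numbered libraries correlated at 0.062 to 0.169, each ROBO1pos library best with its own number in 5 of 5 cases. With the replicate number as a block, 4 imprinted genes and 24 other imprinted genes were called, and 38 of 38 named genes kept their call. Depth limits PEG10, MEG3, PEG3 and CDKN1C, where 3 reads per library correspond to 0.102 to 0.129 CPM.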
